A study of Mus musculus with 24 samples.

Results

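The Hox genes of the mouse spinal cord were followed across 24 expression arrays, each made from the cord of 1 mouse. The members were the genes whose symbol on the array platform is Hoxa, Hoxb, Hoxc or Hoxd followed by a paralogue number, and 34 such genes were found among 17097 named genes. There were 42 Hox probe sets, and where a gene had several, the brightest on average stood for it.

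The arrays fell into 5 groups. Naive wild-type mice (n = 5) and naive mice labelled Act1 ko (n = 5) were unchallenged. Wild-type recipients of Th1 cells (n = 5), wild-type recipients of Th17 cells (n = 5) and Act1 ko recipients of Th17 cells (n = 4) had been given 500 rad of sublethal irradiation 4 h before the transfer of polarized T cells specific for the myelin peptide MOG35-55, which causes experimental autoimmune encephalomyelitis (EAE). The labels place the collection at the start of symptoms, whereas the study's text places it at the peak of disease. The study's methods give age-matched female littermates of 8 to 12 weeks. Irradiation and transferred cells therefore came together in each recipient group, with disease in wild-type recipients, and cannot be told apart from one another. In Act1 ko recipients 0 of 17097 genes were called against naive Act1 ko mice, so disease in that group cannot be assumed. Act1, encoded by Traf3ip2, is the adaptor through which the interleukin-17 receptor signals. Th1 cells went into wild-type mice only.

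Hox genes encode homeodomain transcription factors that sit in 4 clusters, A to D, with up to 13 paralogue positions each. During development the low-numbered genes are switched on first and reach furthest towards the head, whereas the high-numbered genes mark the lumbar and sacral cord. Neurons keep much of this positional code in the adult, and Hox proteins act on DNA together with cofactors of the Pbx, Meis and Pknox families. In the cord the code is best known for sorting motor neurons into brachial, thoracic and lumbar columns.

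All values are RMA intensities on the log2 scale, and a difference of 1 is a 2-fold change. A gene was taken as above background where its naive wild-type mean passed 2.98, the 95th percentile of the means of 78 olfactory and vomeronasal receptor genes. By that mark 30 of 34 Hox genes were above background in naive wild-type cord, and Hoxa11, Hoxb1, Hoxd12 and Hoxd13 were not. That count depends on the mark, and fewer genes passed at 3.52, the median of the array medians. Hoxb1 marks a hindbrain segment, and Hoxd12 and Hoxd13 act in the limb bud and the tail end of the embryo. Of 10 forebrain genes looked up as a check of the tissue, 8 lay at or under background. Among 6 dorsal root ganglion genes 3 lay under it, as did 6 of 10 skeletal muscle genes. Levels of different Hox genes rest on different probes and were not ranked against one another.

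Some facts of the whole series touch these genes. Array medians ran from 3.46 to 3.57. Arrays of 1 group correlated at 0.986 to 0.997. No pair of arrays was close to identical, with a mean absolute difference of at least 0.143 between any pair. The Traf3ip2 probe set read 4.29 ± 0.20 (SD, n = 5) in naive wild-type and 5.56 ± 0.24 (SD, n = 5) in naive Act1 ko cord, so it was higher under the knockout label. It therefore does not check that label, which is used here as given.

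Most Hox genes varied little between naive wild-type mice. Over the 30 genes above background the SD between the 5 naive wild-type arrays had a median of 0.213. It was lowest for Hoxa5, at 0.0517, and highest for Hoxa10, at 0.651. Hoxa5 and its paralogue Hoxc5 are known for their part in phrenic motor neurons, while Hoxa10, Hoxc10 and Hoxd10 belong to the lumbar cord. Hoxa10 read 3.56, 3.95, 5.07, 4.11 and 3.42 in the 5 naive wild-type cords, so 1 of them stood well above the rest.

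Wild-type recipients of Th17 cells were compared with naive wild-type mice to ask how the positional code reads in cord with Th17-driven EAE. In Th17 recipients 18 of 34 Hox genes were lower and 0 higher (limma, adjusted p under 0.05). Over all 17097 genes 25.5% were lower and 18% higher in the same fit, and 43.5% passed in either direction. The median Hox difference was -0.47, beside a median of -0.05 over all genes. The largest changes were about 2-fold, in Hoxa9, Hoxa7, Hoxb6, Hoxb5 and Hoxc8, and the 18 genes ranged from 1.37-fold to 2.36-fold lower. The 16 genes that did not pass lay between -0.342 and 0.0724. RMA sets all arrays to 1 distribution, so these values are relative to the rest of the transcriptome, and in whole cord fewer cells of a type and less RNA per cell cannot be told apart.

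**Figure D1:**
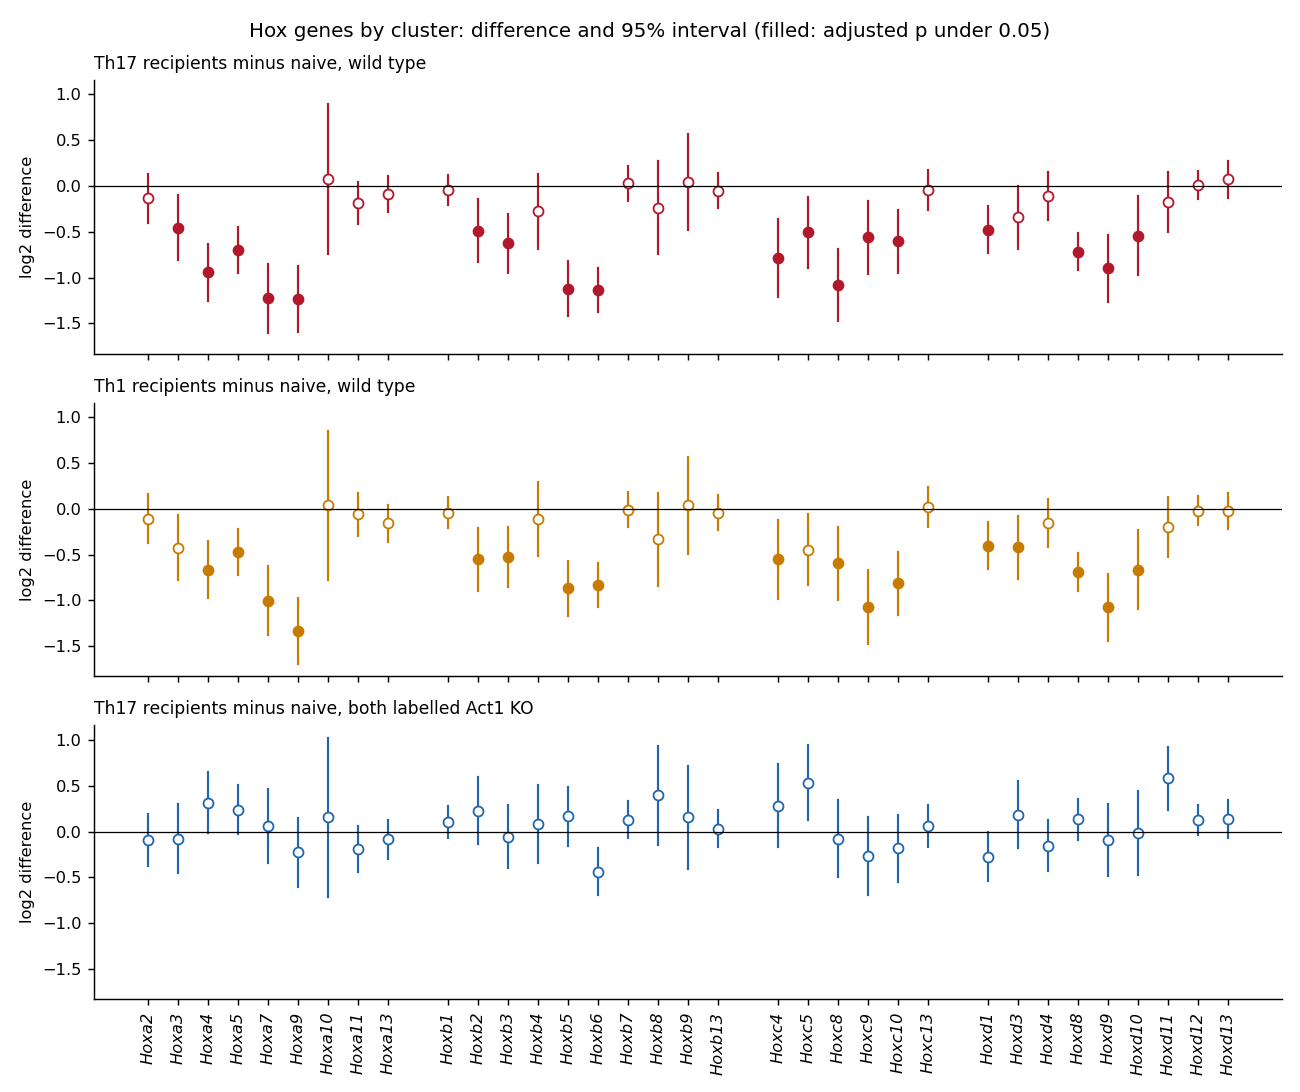
Log2 difference (y axis, points) with its 95% interval (bars) for 34 Hox genes ordered by cluster and paralogue number (x axis), in wild-type Th17 recipients, wild-type Th1 recipients and Act1 ko Th17 recipients, each against naive mice of its genotype. Filled points passed an adjusted p of 0.05: 18, 17 and 0 genes, all below 0.

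Hoxa9, a posterior gene also known from blood stem cells, fell the most. Its 5 naive wild-type values were 6.90, 6.65, 6.47, 6.67 and 6.55. The 5 Th17 recipients read 5.77, 5.14, 4.81, 5.71 and 5.63. All recipients were therefore under all naive mice, and the difference was -1.24 ± 0.17 (SE, adjusted p = 1.39e-06, 2.36-fold lower). Hoxa7, its neighbour in cluster A and a thoracic-level gene, read 6.65, 6.35, 6.75, 6.98 and 6.70 in naive wild-type mice. In Th17 recipients Hoxa7 read 5.13, 5.99, 5.01, 5.24 and 5.91, again without overlap. The fitted change of Hoxa7 was -1.23 ± 0.18 (SE, adjusted p = 3.66e-06). The gap between the pair of changes was smaller than either SE.

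**Figure D2:**
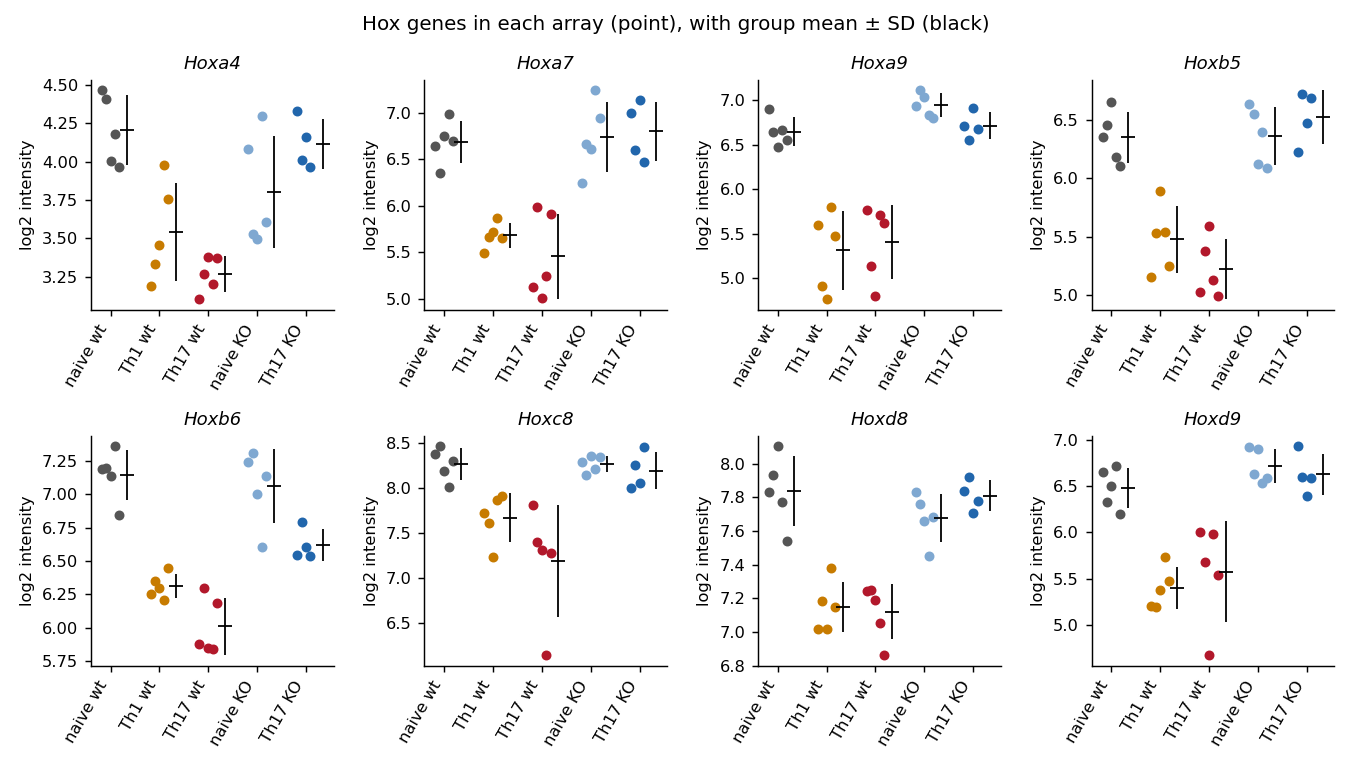
Log2 intensity (y axis) of 8 Hox genes in each of the 24 arrays (points) by group (x axis), with the group mean ± SD in black. In all 8 genes the wild-type Th17 recipients lie below the naive wild-type arrays, whereas the Act1 ko Th17 recipients of Hoxa9 lie between 6.56 and 6.92.

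In cluster B the largest falls were those of Hoxb5 and Hoxb6. Hoxb6, a brachial and thoracic gene, read 7.19, 7.20, 7.14, 7.36 and 6.85 in naive wild-type cord. It read 5.88, 6.30, 5.85, 5.84 and 6.19 in Th17 recipients. No arrays overlapped, and the change of -1.14 ± 0.12 (SE) had the smallest adjusted p of any member, 8.49e-09. Hoxb5, which is active up to the neck, fell from 6.35 ± 0.22 (SD, n = 5) to 5.22 ± 0.26 (SD, n = 5), a change of -1.12 ± 0.15 (SE, adjusted p = 3.90e-07). Hoxb2 and Hoxb3, hindbrain and cervical genes, were lower by less, at -0.49 ± 0.17 and -0.63 ± 0.16 (SE). The other, dimmer Hoxb3 probe set gave -0.28 in Th17 and -0.34 in Th1 recipients, and through it neither Hoxb3 call was made (limma, adjusted p = 0.292 and 0.197). By contrast Hoxb4, Hoxb7, Hoxb8, Hoxb9 and Hoxb13 did not pass, so that only 4 of 10 members of this cluster were called.

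Cluster C had 5 of 6 members called. Hoxc8, which helps to set motor pools of the forelimb, read 8.38, 8.46, 8.19, 8.01 and 8.31 in naive wild-type cord and 7.81, 7.40, 7.31, 6.14 and 7.28 in Th17 recipients. The groups did not overlap, and 1 recipient lay far below the other four. The difference was -1.08 ± 0.19 (SE, adjusted p = 3.51e-05). Hoxc4, a cervical gene, changed by -0.79 ± 0.21 (SE), Hoxc10, which directs lumbar motor columns, by -0.60 ± 0.17 (SE), and Hoxc9, which defines thoracic motor neurons, by -0.56 ± 0.19 (SE). Hoxc9 lost its call without naive wild-type replicate 4 (adjusted p = 0.0789) or Th17 replicate 3 (0.0729), with limma in both cases. Hoxc5 was lower by a fitted -0.50 ± 0.19 (SE), a call that was lost without naive wild-type replicate 3 (adjusted p = 0.128) or Th17 replicate 1 (0.0987).

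In cluster A the remaining called genes were Hoxa4, Hoxa5 and Hoxa3, all of cervical to upper thoracic reach. Hoxa4 read 4.47, 4.41, 4.01, 4.18 and 3.97 in naive wild-type cord and 3.10, 3.27, 3.38, 3.20 and 3.37 in Th17 recipients. Its difference was -0.94 ± 0.15 (SE, adjusted p = 9.95e-06). Hoxa5 stayed within 8.01 and 8.13 in all 5 naive wild-type cords and lay between 7.02 and 7.90 in Th17 recipients, again without overlap, at -0.70 ± 0.12 (SE). Hoxa3 was the weakest call of the cluster, -0.45 ± 0.17 (SE, adjusted p = 0.0339). It was lost without naive wild-type replicate 2 (adjusted p = 0.135) or without Th17 replicate 1 (0.0915), 2 (0.106) or 4 (0.0924). The 3 further Hoxa3 probe sets, all dimmer, had differences of -0.15, -0.02 and -0.09 and did not pass.

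Cluster D had 4 of 9 members called. Hoxd8, a thoracic gene, changed by -0.72 ± 0.10 (SE, adjusted p = 1.29e-06), and its other probe set gave -1.04. Hoxd9 read 6.65, 6.33, 6.50, 6.71 and 6.19 in naive wild-type cord and 6.001, 5.68, 4.67, 5.98 and 5.54 in Th17 recipients. The groups of Hoxd9 were apart, at -0.90 ± 0.18 (SE, adjusted p = 0.000142). Hoxd1, at -0.48 ± 0.12 (SE), and the lumbar gene Hoxd10, at -0.54 ± 0.21 (SE, adjusted p = 0.0384), were lower with overlapping arrays. The Hoxd10 call was lost when any of naive wild-type replicates 2, 3 and 4 was left out (adjusted p = 0.0923, 0.0824 and 0.113) and without Th17 replicate 2 (0.0559) or 3 (0.149).

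Read along the paralogue numbers, the share of members called was 9 of 14 for paralogues 1 to 5, 4 of 6 for paralogues 6 to 8 and 5 of 14 for paralogues 9 to 13. The last group holds 3 of the 4 genes that were not above background. With those left out, 9 of 13, 4 of 6 and 5 of 11 were called, with medians of -0.49, -0.90 and -0.17. The 11 still hold Hoxa13, Hoxb13, Hoxc13 and Hoxd11, whose naive wild-type means (3.17, 3.03, 3.05 and 3.29) passed the background mark narrowly. They had little room to fall and were not called. The same holds for Hoxb7 (3.14) among paralogues 6 to 8. The rest of the 11 are the 7 genes of paralogues 9 and 10, of which 5 were called. The median of -0.17 therefore does not show that the high-numbered genes fell less. These shares describe which members were called, and no test was run between the groups. In 13 of all 34 Hox genes every Th17 recipient lay below every naive wild-type mouse, which 20% of all genes did in that direction. These 13 are all among the 18 called.

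Of 7 genes of paralogues 9 and 10, 5 were called, and no test compared these genes with one another. Hoxa9, Hoxc9 and Hoxd9 were lower in recipients, while Hoxb9, the remaining paralogue, read 4.54 ± 0.34 (SD, n = 5) in naive wild-type mice and 4.58 ± 0.25 (SD, n = 5) in Th17 recipients. The interval of the Hoxb9 difference was -0.48 to 0.57, and that of Hoxc9 overlaps it. Likewise Hoxc10 and Hoxd10 were lower and Hoxa10 was not, at 0.07 with a wide interval of -0.75 to 0.89. Hoxb8, a gene of the dorsal horn and of a lineage of microglia, read 6.46 ± 0.25 (SD, n = 5) and 6.22 ± 0.27 (SD, n = 5), a difference of -0.24 (interval -0.75 to 0.27). For Hoxa10 and Hoxb8 both 0 and a fall of the size seen in Hoxc9 lie within the interval, so these values do not show whether either gene fell.

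**Figure D3:**
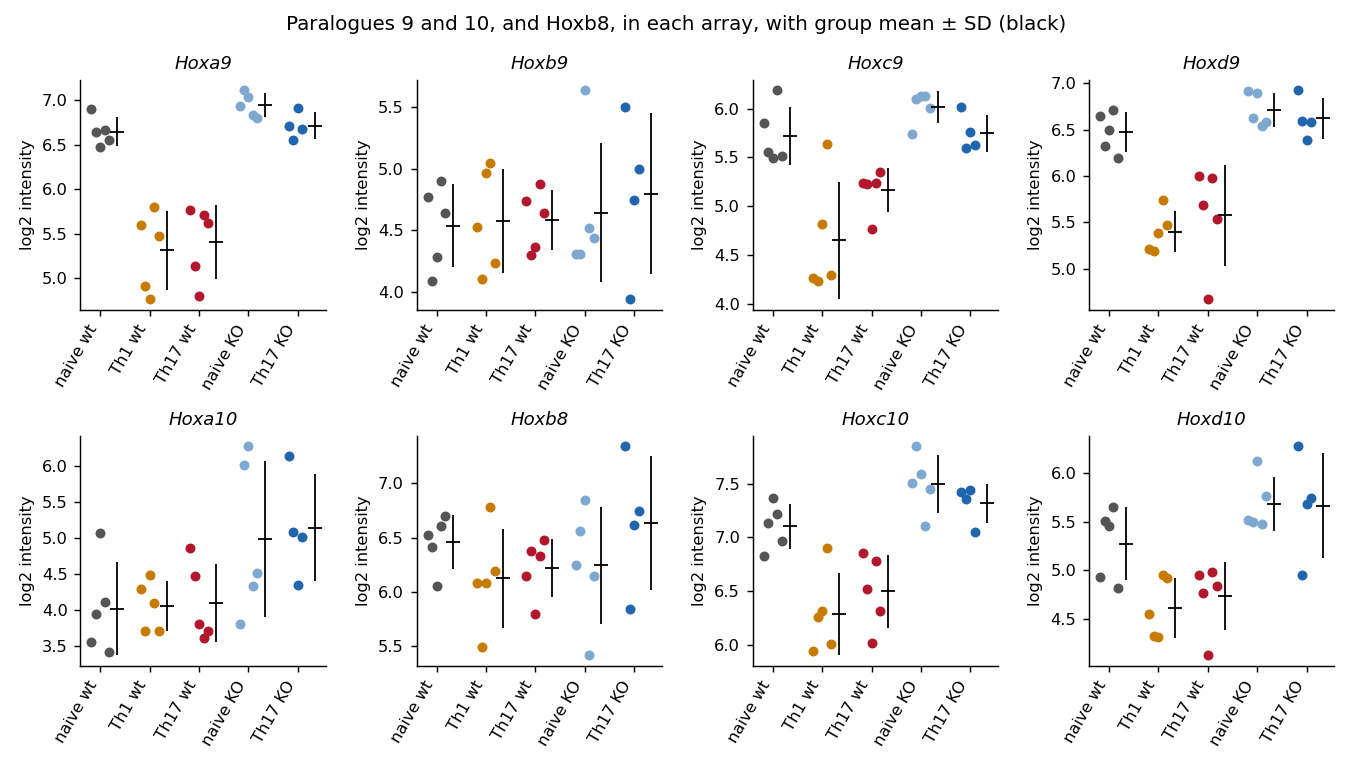
Log2 intensity (y axis) of the measured genes of paralogues 9 and 10, and of Hoxb8, in each array (points) by group (x axis), with the group mean ± SD in black. In Hoxa9 and Hoxd9 the wild-type recipients lie below the naive wild-type mice, whereas Hoxb9, Hoxa10 and Hoxb8 overlap in all groups.

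Promoter windows were taken from RefSeq (GRCm38.p6) as the 200 bases before the start of each gene, and 21 of 34 members had one. They are shown for the pair that fell the most in Th17 recipients and for Hoxd8, which was lower, and Hoxb8, which did not pass. Capitals mark matches, on either strand, to TGATNNAT (a joint Hox and Pbx site), TGACAG (a Meis and Pknox site), CCAAT or TATAAA. Hoxa7 lies at chr6:52218574-52218773 on the minus strand, Hoxa9 at chr6:52227371-52227570 on the minus strand, Hoxd8 at chr2:74704415-74704614 on the plus strand and Hoxb8 at chr11:96281705-96281904 on the plus strand, each given as the window printed.
Hoxa7: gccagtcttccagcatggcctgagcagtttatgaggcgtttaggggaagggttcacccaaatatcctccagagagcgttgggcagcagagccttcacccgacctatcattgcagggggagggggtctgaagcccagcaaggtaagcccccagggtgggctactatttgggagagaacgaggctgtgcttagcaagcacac
Hoxa9: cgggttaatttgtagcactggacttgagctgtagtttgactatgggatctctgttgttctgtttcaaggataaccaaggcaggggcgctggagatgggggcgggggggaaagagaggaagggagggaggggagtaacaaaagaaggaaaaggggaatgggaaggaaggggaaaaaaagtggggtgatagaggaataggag
Hoxd8: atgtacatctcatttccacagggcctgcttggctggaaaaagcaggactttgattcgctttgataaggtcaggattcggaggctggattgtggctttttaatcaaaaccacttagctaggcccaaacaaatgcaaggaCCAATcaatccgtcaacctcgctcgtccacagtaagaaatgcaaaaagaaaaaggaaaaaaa
Hoxb8: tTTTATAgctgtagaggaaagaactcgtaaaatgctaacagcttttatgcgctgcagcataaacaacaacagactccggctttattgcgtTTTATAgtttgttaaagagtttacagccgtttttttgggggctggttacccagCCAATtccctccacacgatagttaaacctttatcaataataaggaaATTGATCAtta

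The windows of Hoxa7 and Hoxa9 held none of the 4 motifs, that of Hoxd8 held 1 CCAAT, and that of Hoxb8 held 2 TATAAA matches, 1 CCAAT and 1 TGATNNAT. Over the 21 Hox windows TGATNNAT was found in 3 (14.3%), beside 5.98% of 27020 gene windows of the same length. CCAAT was found in 9 of 21 (42.9%, beside 30%), TATAAA in 3 of 21 (14.3%, beside 10.6%) and TGACAG in 2 of 21 (9.52%, beside 13%). Among 8 windows of genes lower in both kinds of recipient 0 held TGATNNAT, and among 11 windows of genes lower in neither 3 did, namely those of Hoxa2, Hoxb1 and Hoxb8. The counts are small and a match of letters is not a site of binding.

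Wild-type recipients of Th1 cells were compared with the same naive wild-type mice to ask whether the T cell lineage mattered. Here 17 of 34 Hox genes were lower and 0 higher (limma, adjusted p under 0.05), where 24.1% of all genes were lower, 16.7% higher and 40.8% called in either direction. The median Hox difference was -0.42, beside -0.06 over all genes. In 9 of 34 Hox genes all recipients lay under all naive wild-type mice, which 19.5% of all genes did. Since both comparisons use the same 5 naive arrays, the members they share are not independent evidence. Of the genes called, 16 were called in both, Hoxa3 and Hoxc5 in Th17 recipients only, and Hoxd3 in Th1 recipients only.

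Hoxa9 again had the largest difference, with 5.60, 4.92, 4.77, 5.81 and 5.48 in the 5 Th1 recipients and a change of -1.34 ± 0.17 (SE, adjusted p = 5.40e-07, 2.52-fold lower). Hoxd9 read 5.21, 5.19, 5.38, 5.74 and 5.48, at -1.08 ± 0.18 (SE, adjusted p = 1.70e-05). Both genes were below every naive wild-type value. Hoxa7 came next among the non-overlapping genes, at -1.003 ± 0.18 (SE, adjusted p = 6.72e-05), followed by Hoxb5 at -0.87 ± 0.15 (SE) and Hoxb6 at -0.84 ± 0.12 (SE). Hoxd8 changed by -0.69 ± 0.10 (SE), close to its value in Th17 recipients.

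The thoracic gene Hoxc9 behaved less evenly. Its Th1 recipients read 4.26, 4.24, 4.81, 5.64 and 4.30, against 5.85, 5.56, 5.498, 6.19 and 5.52 in naive wild-type mice. Replicate 4 lay among the naive values and the other four lay well below. The difference was -1.07 ± 0.19 (SE, adjusted p = 5.64e-05). In Hoxc10 the same replicate, at 6.90, was the highest of the Th1 recipients, and the gene changed by -0.82 ± 0.17 (SE, adjusted p = 0.000248).

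Several weaker Th1 calls were lost when 1 array was left out. Hoxd3, at -0.42 ± 0.17 (SE, adjusted p = 0.0460), was lost without naive wild-type replicate 1 (adjusted p = 0.0956), 3 (0.0956) or 5 (0.0929) or Th1 replicate 1 (0.0683), 2 (0.143) or 3 (0.118). Hoxc4, at -0.55 ± 0.21 (SE, adjusted p = 0.0358), was lost without naive wild-type replicate 2 (adjusted p = 0.0748), 4 (0.0712) or 5 (0.0584) or Th1 replicate 2 (0.0696) or 4 (0.105). Hoxc8, at -0.60 ± 0.19 (SE), was lost without Th1 replicate 3 (adjusted p = 0.0516). In the other direction Hoxa3 passed without naive wild-type replicate 5 (adjusted p = 0.0375) or Th1 replicate 4 (0.0246), and Hoxc5 without naive wild-type replicate 4 (0.0307) or Th1 replicate 1 (0.0451). The 3 genes called in 1 kind of recipient only are thus near the threshold on both sides.

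Set directly against each other, Th17 and Th1 recipients differed in 0 of 34 Hox genes (limma, adjusted p under 0.05), where 3% of all genes did (1.09% lower and 1.91% higher in Th17 recipients), and 3 Hox genes had an unadjusted p under 0.05, as did 12% of all genes. No Hox gene was free of overlap between these groups, as 1.36% of all genes were with Th17 recipients lower and 1.93% with them higher. Those were Hoxc9, at 0.51 ± 0.19 (SE, adjusted p = 0.213), Hoxb6, at -0.30 ± 0.12 (SE, adjusted p = 0.232), and Hoxc8, at -0.48 ± 0.19 (SE, adjusted p = 0.246). Positive values are higher in Th17 recipients. The interval for Hoxc9 ran from 0.11 to 0.91, and for Hoxc8 from -0.88 to -0.09. Without Th1 replicate 4, the array with the high Hoxc9 value, the Hoxc9 difference became 0.76 (adjusted p = 0.00303) and 1 Hox gene was called. By sign, 11 of 14 members of paralogues 1 to 5 were lower in Th17 than in Th1 recipients and 11 of 14 members of paralogues 9 to 13 were higher, with medians of -0.06 and 0.05 that are small beside the SE of single genes.

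Cells of other kinds moved along with the Hox genes, and their part in the result was not tested. All 19 pan-neuronal genes measured were lower in Th1 recipients (median -0.65) and 18 of 19 in Th17 recipients (median -0.73), with Slc32a1, the vesicular transporter of inhibitory neurons, at -0.84 and Nefh, a neurofilament subunit, at -0.89 in the latter. Their mean level was 9.52 to 9.63 in naive wild-type, 8.81 to 9.005 in Th1 and 8.78 to 8.94 in Th17 recipients. Oligodendrocyte genes were lower in 8 of 9 cases in either kind of recipient. Genes of monocytes, macrophages and microglia went the other way in 14 of 15 cases in both, from a mean level of 4.63 to 4.75 in naive wild-type mice to 8.12 to 8.32 with Th1 and 8.22 to 8.46 with Th17 cells. All 8 T cell genes were higher as well.

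The values also depend on the scaling, which moves all genes of an array alike. When each array was centred on the 19 pan-neuronal genes, all genes shifted by 0.71 in Th17 and 0.67 in Th1 recipients. Then 4 Hox genes were lower and 15 higher in Th17 recipients, and 2 were lower and 14 higher in Th1 recipients, with Hox medians of 0.25 and 0.24 beside medians of 0.66 and 0.61 over all genes. Over all genes 2.55% were lower and 82.9% higher with Th17 cells, and 1.86% and 82.6% with Th1 cells. Since centring moves all genes of an array alike, it cannot change the gap between the Hox genes and all genes. The genes that still fell against neuronal genes in Th17 recipients were Hoxa9 (-0.52, adjusted p = 0.00324), Hoxa7 (-0.51, adjusted p = 0.0168), Hoxb6 (-0.42, adjusted p = 0.00100) and Hoxb5 (-0.41, adjusted p = 0.0181). In Th1 recipients they were Hoxa9 (-0.67, adjusted p = 0.000346) and Hoxd9 (-0.41, adjusted p = 0.0267). Hoxa9 was thus called lower in both comparisons under this centring too. Centring on 66 ribosomal protein genes shifted the values the other way and called 32 of 34 Hox genes lower in each comparison, where 78.1% (Th17) and 81.4% (Th1) of all genes were.

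**Figure D4:**
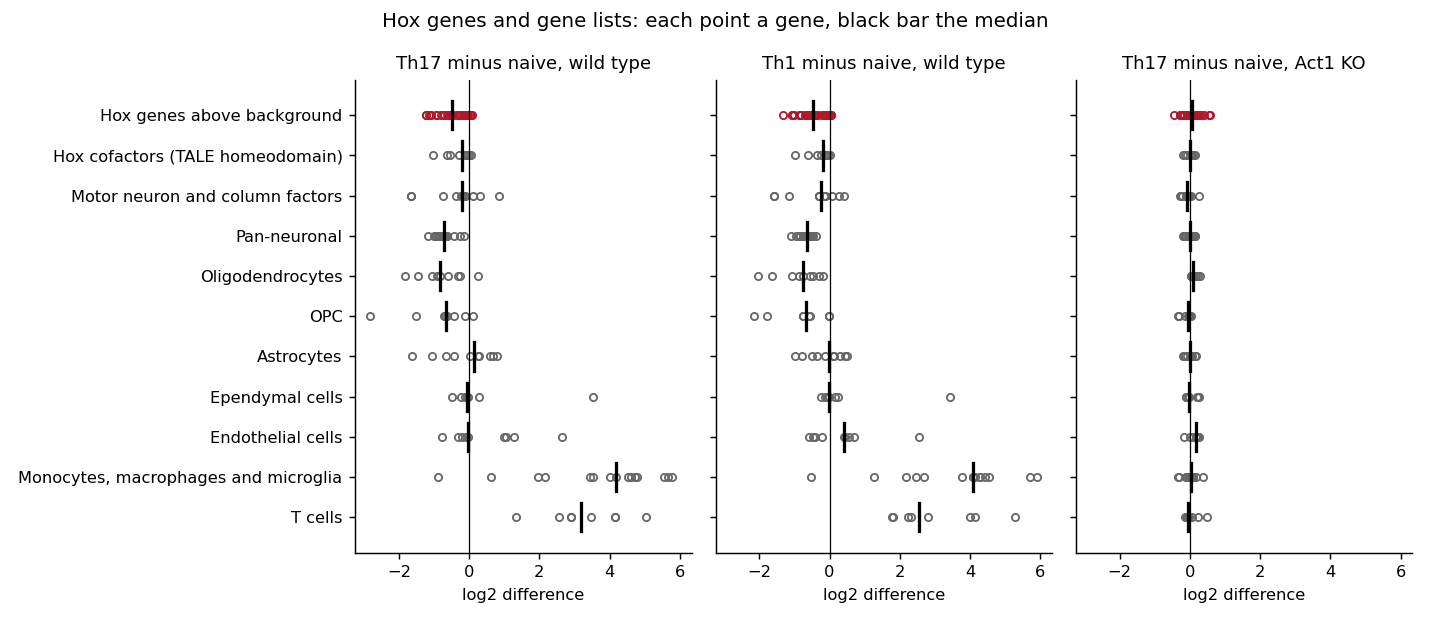
Log2 difference (x axis) of each gene (points) in the 30 Hox genes above background and in 10 gene lists (y axis), with the list median as a black bar, in 3 comparisons. In wild-type recipients the Hox median (-0.50 with Th17 cells) lies between 0 and the pan-neuronal median (-0.73), and in Act1 ko recipients all lists sit near 0.

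The genes known to work with or on Hox genes were read from lists of known members. Their counts stand beside 25.5% of all genes lower and 18% higher in Th17 recipients, and 24.1% and 16.7% in Th1 recipients. Of 8 TALE cofactors measured, 3 were lower and 0 higher in both kinds of wild-type recipient. Pbx3, the partner that lets Hox proteins choose their sites, changed by -1.03 in Th17 and -0.98 in Th1 recipients (limma, adjusted p = 5.92e-10 and 2.04e-09). Meis2 changed by -0.63 and -0.61, and Pknox2 by -0.56 and -0.37. Pbx2, Pbx4, Meis1, Meis3 and Pknox1 did not pass in Th17 recipients.

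In the Polycomb group, which keeps Hox clusters shut, 4 of 18 members were higher and 4 lower in Th17 recipients, shares near those over all genes. Eed and Ezh2, the core of the complex that methylates histone H3 at lysine 27, were higher by 0.93 and 0.72, whereas Ezh1 (-0.27), Cbx6 (-0.54), Cbx7 (-0.59) and Phc1 (-0.65) were lower. In Th1 recipients 2 were higher and 4 lower, with Eed at 0.79 and Ezh2 at 0.52. Of 10 trithorax genes and H3K27 demethylases, which oppose Polycomb, 3 were lower and 0 higher in both comparisons: Men1, Rbbp5 and Psip1, at -0.41, -0.32 and -0.40 with Th17 cells.

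Retinoic acid, the Cdx factors and Gdf11 set the Hox code in the embryo. Of 17 such genes 5 were higher and 3 lower in Th17 recipients, and 1 was higher and 2 lower in Th1 recipients. Aldh1a2, which makes retinoic acid, rose by 0.85 and Crabp2, which carries it to the nucleus, by 0.83 with Th17 cells, while Crabp1, its cytoplasmic binding protein, was lower at -1.02. Among 12 motor neuron genes, the downstream side of the code, 2 were higher and 4 lower with Th17 cells and 0 higher and 6 lower with Th1 cells. The Th17 counts are near the shares over all genes. Aldh1a2 is also on this list and on that of meningeal and perivascular fibroblasts, so these lists are not separate. Slc18a3 and Slc5a7, the transporters of acetylcholine and choline, were both at -1.66 in Th17 recipients, a larger change than in any Hox gene, and Isl1, which defines motor neurons, was at -0.39.

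Hox genes are also used by blood stem cells, so 10 progenitor genes were looked up. In Th17 recipients 1 was higher and 3 lower, near the shares over all genes. Cd34, which vessels also carry, was at 1.83, and Flt3 and Hlf were at -0.89 and -1.32. Mpo and Elane, defining genes of myeloid progenitors, were under background in naive wild-type mice and did not pass.

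In mice labelled Act1 ko no Hox gene was called after the transfer of Th17 cells. With limma 0 of 34 members were called, where 0% of all 17097 genes were, and 4 Hox genes and 1070 of all genes had an unadjusted p under 0.05. The median Hox difference was 0.07. No Hox gene had recipients wholly below or above the naive mice, as 0.684% and 0.813% of all genes did. Hoxa9 read 6.93, 7.12, 7.04, 6.84 and 6.80 in naive Act1 ko cords and 6.71, 6.56, 6.92 and 6.68 in Act1 ko recipients. In 1 recipient the value lay within the naive range, and the difference was -0.23 (interval -0.61 to 0.15). Hoxa7, at 0.06 (interval -0.34 to 0.46), Hoxb5, at 0.17 (-0.15 to 0.48), and Hoxc8, at -0.08 (-0.49 to 0.34), had intervals that leave out the falls seen in wild-type mice. Of the 18 genes lower in wild-type Th17 recipients, 16 had an interval in Act1 ko mice that lay wholly above the wild-type estimate. These genes were selected on that estimate, its own SE is left out, and no share over all genes was taken. The count is therefore no test of the genotypes, which is the interaction given below.

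The 4 Hox genes with an unadjusted p under 0.05 were Hoxb6, Hoxd11, Hoxc5 and Hoxd1, and none passed after adjustment. Hoxb6 was lower, at -0.44 ± 0.13 (SE, adjusted p = 0.348), with 6.55, 6.79, 6.61 and 6.54 in recipients and 7.25, 7.31, 7.01, 6.61 and 7.14 in naive Act1 ko cords. Here 3 of 4 recipients lay under all 5 naive arrays. Hoxd11 was at 0.58 ± 0.17 (SE, adjusted p = 0.357), Hoxc5 at 0.54 ± 0.20 (SE, adjusted p = 0.6001) and Hoxd1 at -0.28 ± 0.13 (SE, adjusted p = 0.784). The other Hoxc5 probe set, of similar brightness, gave -0.06 in the same comparison. No gene of the marker lists was called either. Genes of monocytes, macrophages and microglia had a mean level of 4.63 to 4.78 in both Act1 ko groups, pan-neuronal genes of 9.37 to 9.67 in naive and 9.49 to 9.55 in recipient Act1 ko cords.

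The difference between the genotypes was tested as an interaction. In 13 of 34 Hox genes the Th17 response was higher (less negative) in Act1 ko than in wild-type mice and in 0 lower (limma, adjusted p under 0.05), where 18.2% of all genes were higher and 13.8% lower. Of the 18 genes lower in wild-type recipients 12 were among them, the other being Hoxd11. The interaction contains the same wild-type difference that selected the 18 genes, so this overlap is not independent evidence. The largest interaction terms were those of Hoxb5, at 1.29 ± 0.21 (SE, adjusted p = 2.67e-05), Hoxa7, at 1.29 ± 0.27 (SE, adjusted p = 0.000444), and Hoxa4, at 1.26 ± 0.22 (SE, adjusted p = 6.32e-05). Hoxc4, Hoxc5, Hoxa9, Hoxc8, Hoxa5, Hoxd8 and Hoxd9 lay between 0.81 and 1.07. The other Hoxc5 probe set gave 0.38 and did not pass (limma over probe sets, adjusted p = 0.279), so the Hoxc5 call rests on 1 probe set. In the other 6 of the 18 the term did not pass and the responses were not shown to differ. These were Hoxa3 (0.38 ± 0.25, SE), Hoxb3 (0.57 ± 0.23, SE), Hoxc9 (0.29 ± 0.28, SE), Hoxc10 (0.42 ± 0.24, SE), Hoxd1 (0.20 ± 0.18, SE) and Hoxd10 (0.53 ± 0.31, SE).

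This interaction depended on the scaling and on the block. Centring on pan-neuronal genes shifted it by -0.71 for all genes and left 2 Hox genes higher (Hoxa4 and Hoxb5) and 11 lower, where 1.73% of all genes were higher and 75.4% lower. Centring on ribosomal protein genes left 28 Hox genes higher and 0 lower, where 58.6% of all genes were higher and 8.61% lower. With the plate row as a block 6 Hox genes were called, all higher, and the share of all genes under that block is not given here. Hoxb2, at 0.72 ± 0.24 (SE, adjusted p = 0.0250), was lost without naive Act1 ko replicate 2 (adjusted p = 0.0545) or Act1 ko recipient replicate 3 (0.0843). Hoxb3 passed without naive wild-type replicate 3 (adjusted p = 0.0413), naive Act1 ko replicate 3 (0.0431) or 4 (0.0442) or Act1 ko recipient replicate 2 (0.0116), and Hoxd10 without the last of these (0.0415).

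Naive mice of both genotypes were compared to see whether the knockout label itself went with another Hox code. None of the 34 Hox genes was called by limma, where 0.585% of all genes were, and 5 had an unadjusted p under 0.05, as did 7.31% of all genes. The largest difference was that of Hoxa10, at 0.97 ± 0.40 (SE, adjusted p = 0.547), with 3.81, 6.01, 6.28, 4.34 and 4.51 in naive Act1 ko cords. Only 2 of these 5 arrays exceeded the highest naive wild-type value. Hoxc4 read 5.86, 5.53, 5.14, 5.59 and 5.80 in naive Act1 ko mice, all below the naive wild-type range of 5.92 to 6.27. Its difference was -0.54 ± 0.21 (SE, adjusted p = 0.484), and it was the 1 Hox gene without overlap, as were 1.04% of all genes in that direction.

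By sign alone the naive groups leaned apart along the paralogue axis, with no Hox gene called. Of 14 genes of paralogues 1 to 5, 11 were lower in naive Act1 ko mice (median -0.08), and of 14 genes of paralogues 9 to 13, 12 were higher (median 0.17). All 7 genes of paralogues 9 and 10 were higher, including Hoxc10 at 0.40 ± 0.17 (SE, adjusted p = 0.587) and Hoxd10 at 0.40 ± 0.21 (SE, adjusted p = 0.716). The lower genes included Hoxa4, at -0.40 ± 0.15 (SE, adjusted p = 0.461). All genes of a mouse were read from the same RNA, so these signs are a description and not separate observations. The mean of the genes above background in each array overlapped between the naive groups. For paralogues 1 to 5 it ran from 4.72 to 4.90 in wild-type and 4.46 to 4.89 in Act1 ko mice. For paralogues 9 to 13 it ran from 4.54 to 4.97 in wild-type and 4.81 to 5.30 in Act1 ko mice.

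**Figure D5:**
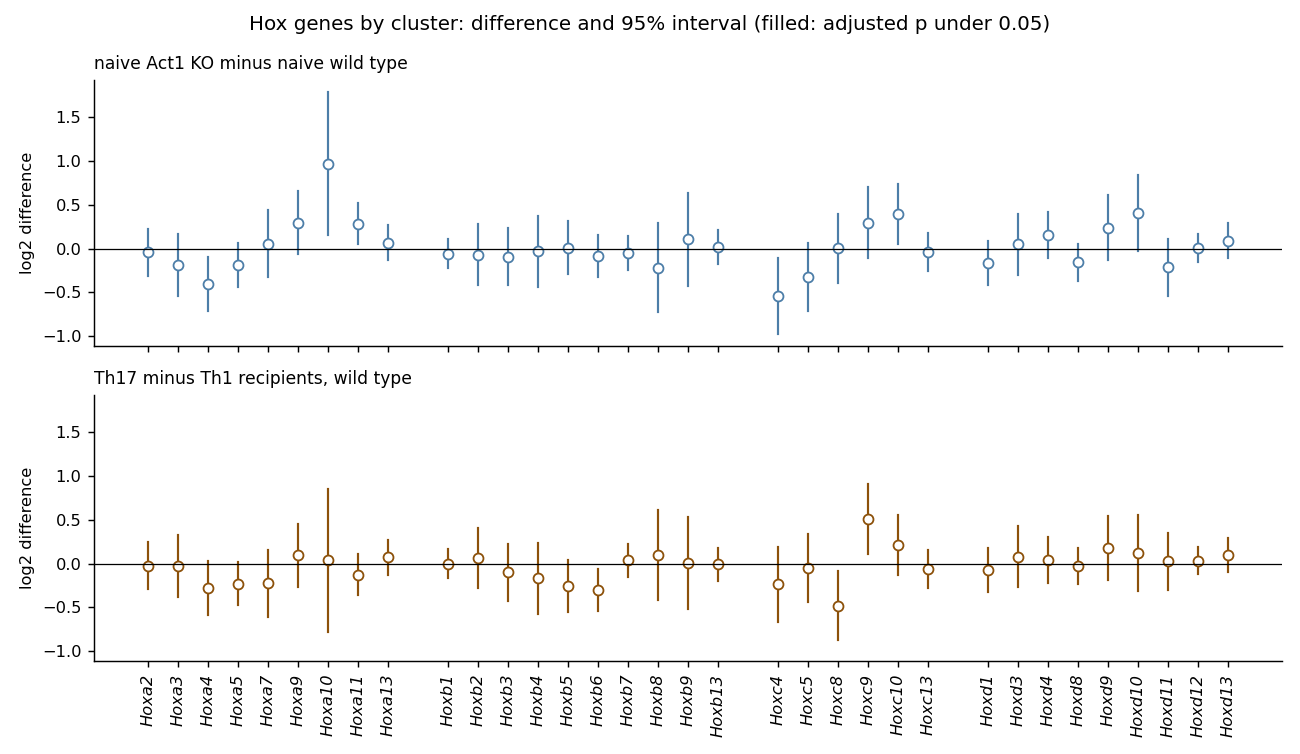
Log2 difference (y axis, points) with its 95% interval (bars) for 34 Hox genes by cluster and paralogue number (x axis), for naive Act1 ko minus naive wild-type mice and for Th17 minus Th1 wild-type recipients. No point is filled, since 0 genes passed an adjusted p of 0.05 in either comparison, and Hoxa10 has the widest interval.

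The titles carry a letter and a number that read as the position of an array on a plate. Within plate rows that held both groups (4 rows), 15 of the 18 genes lower in Th17 recipients were lower in every row. With 3 such rows, 16 of the 17 genes lower in Th1 recipients were. Both counts are over genes already called on all arrays and describe only those. The calls of Hoxa3 and Hoxc5 with Th17 cells and of Hoxc4 with Th1 cells were lost with the plate row as a block. That of Hoxa3 was also lost with the plate column as a block. No row held both Act1 ko groups, so no within-row value could be had for them, and 1 row held both naive genotypes.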

How the data were processed

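Total RNA of 24 spinal cords was hybridised by the authors to Affymetrix HT MG-430 PM arrays, 1 array per mouse. The deposited log2 values are RMA output per the labels (background correction, quantile normalization and probe set summary), whose version is not given in the sources used here. Intensities before RMA and scan dates were not used here. Of 45118 probe sets, 28898 have 1 gene symbol in the platform annotation, 551 several and 15669 none listed, and the 17097 named genes were each read through the probe set with the highest mean. Groups came from the titles of the samples. Differences were fitted in R 4.3.3 with limma 3.58.1 (lmFit and eBayes, all 24 arrays and 5 group means in 1 fit, two-sided, no block), and Benjamini-Hochberg adjustment ran over 17097 genes with a threshold of 0.05. Intervals are at 95%. The fit was tested on simulated data. The number of arrays limits the precision, and nothing in the labels gives separate litters or days, so p-values measure the spread between these mice.

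Any Hox gene could be named. Named in full in a comparison were up to 8 called Hox genes with the largest absolute difference, called genes against the direction of the rest, and genes whose probe sets disagreed in sign. From each gene list the strongest members by adjusted p (at most 4) were named, with some of those called against the rest, and Traf3ip2 as the targeted gene. Other genes were chosen after their values were seen. The members and gene lists were chosen with earlier results of these data known. Alternatives covered probe set choice, scaling, filters, variance model, blocks, the groups fitted, single arrays left out, and the methods' t-test and the exact Mann-Whitney test.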

Additional observations from a re-analysis of the deposited data

Results flagged for a closer look

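In 9 of 170 sets of 1 Hox gene in 1 group, a single array stood apart from the rest of its group by Dixon's test, where about 1 in 20 sets, 8.5 here, would do so by chance. Among naive wild-type mice these were replicate 2 for Hoxa3 (4.65), replicate 1 for Hoxb1 (2.84) and replicate 3 for Hoxb3 (5.66). Among naive Act1 ko mice they were replicate 4 for Hoxb7 (2.67) and replicate 3 for Hoxb9 (5.64), and among Act1 ko recipients replicate 1 for Hoxb7 (3.14). Among wild-type Th17 recipients they were replicate 1 for Hoxc4 (4.45) and replicate 3 for both Hoxc9 (4.77) and Hoxd10 (4.13). The last 2 values come from 1 cord, which was also the lowest Th17 recipient for Hoxa9 (4.81), Hoxd9 (4.67) and Hoxc10 (6.02).

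The response to Th17 cells differed between the genotypes, by the interaction term of the limma fit, in 13 of 34 Hox genes. Over all genes 18.2% had a higher and 13.8% a lower term, 32% in either direction, and the Hox calls depended on the scaling. The terms, Act1 ko response minus wild-type response, were 1.26 for Hoxa4, 0.94 for Hoxa5, 1.29 for Hoxa7, 1.01 for Hoxa9, 0.72 for Hoxb2, 1.29 for Hoxb5, 0.70 for Hoxb6, 1.07 for Hoxc4, 1.04 for Hoxc5, 1.00 for Hoxc8, 0.85 for Hoxd8, 0.81 for Hoxd9 and 0.76 for Hoxd11. The other Hoxc5 probe set gave a term of 0.38 that did not pass (limma over probe sets, adjusted p = 0.279). In Hoxd11 the term came mainly from the Act1 ko side, where recipients were at 3.66 ± 0.45 (SD, n = 4) and naive mice at 3.07 ± 0.17 (SD, n = 5).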

How the results depend on the processing

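Most Hox calls in wild-type recipients were lower under every alternative except centring on pan-neuronal genes, which moves all genes of an array up alike. Under that centring 19 Hox genes were called with Th17 cells (4 lower, 15 higher), 16 with Th1 cells (2 lower, 14 higher) and 13 in the interaction (11 lower, 2 higher). By sign 20 of 34 Hox differences turned positive with Th17 cells and 23 with Th1 cells, and 19 interaction terms turned negative. For Th17 recipients the values of the called genes that turned, and of Hoxb8 and Hoxd3, were 0.26 (Hoxa3), 0.0113 (Hoxa5), 0.23 (Hoxb2), 0.0875 (Hoxb3), 0.48 (Hoxb8), 0.21 (Hoxc5), 0.15 (Hoxc9), 0.11 (Hoxc10), 0.24 (Hoxd1), 0.37 (Hoxd3) and 0.17 (Hoxd10). For Th1 recipients the values of the called genes that turned, and of Hoxb4, were 0.0035 (Hoxa4), 0.19 (Hoxa5), 0.12 (Hoxb2), 0.14 (Hoxb3), 0.56 (Hoxb4), 0.12 (Hoxc4), 0.0703 (Hoxc8), 0.26 (Hoxd1), 0.24 (Hoxd3) and 0.0043 (Hoxd10), and among the called interaction terms -0.0069 (Hoxb6). Centring on ribosomal protein genes called 32 Hox genes with Th17 cells, 32 with Th1 cells and 28 in the interaction. With the plate row as a block the interaction gave 6 calls, without a share over all genes beside it, and the cause was not tested. With 1 array left out, the counts of Hox genes called ran from 16 to 18 (Th17), 15 to 17 (Th1), 12 to 17 (interaction), 0 to 1 (Th17 against Th1) and 0 to 0 in both other comparisons, and 30 to 31 Hox genes were above background. The last range holds for the mark used. At 3.52, the median of the array medians, Hoxa2, Hoxa13, Hoxb7, Hoxb13, Hoxc13, Hoxd1, Hoxd4 and Hoxd11 also lay under the mark in naive wild-type mice. At 3.58, the 99th percentile of the receptor genes, Hoxc5 did as well. Without Th1 replicates 4 and 5 together 1 gene was called between Th17 and Th1 recipients. At an unadjusted p the methods' t-test gave 1, 3 and 3 genes (Th17 against Th1, Act1 ko recipients, naive genotypes) and the exact Mann-Whitney test 1, 2 and 2, and after adjustment both gave 0 in all of these. By limma 12%, 6.26% and 7.31% of all genes had an unadjusted p under 0.05 there, so these small counts are no result about Hox genes. Replicate numbers did not pair the samples, since deviations of same-numbered arrays correlated at a median of 0.041 and 16 of 46 pairs passed 0.1. With the replicate number as a block 18 (Th17), 17 (Th1) and 14 (interaction) Hox genes were called, and it moved no count by over 1.5 times. Dimmer probe sets near the background mark limit what can be said of Hoxa11, Hoxb1, Hoxd12 and Hoxd13. The same limit holds for Hoxa13, Hoxb7, Hoxb13, Hoxc13 and Hoxd11, which passed the mark narrowly, and for the calls in Hoxc5 and Hoxd1. The plate column as a block could not be estimated for the comparisons with Th1 recipients and was not run there.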

Other observations

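Glial and vascular genes were also read in the wild-type recipients, where 18% (Th17) and 16.7% (Th1) of all genes were higher and 25.5% and 24.1% lower. Of 8 genes of oligodendrocyte precursors 6 were lower and 0 higher with either kind of T cell, among them the proteoglycan Bcan (-2.81 with Th17, -1.79 with Th1 cells) and the receptor Gpr17 (-1.50 and -2.14). Of 10 astrocyte genes 5 were higher and 4 lower with Th17 cells, and 3 higher and 4 lower with Th1 cells, with the filament gene Gfap at 0.59 and 0.45 and the calcium-binding S100b at -1.04 and -0.9954. Of 10 meningeal and perivascular fibroblast genes 7 were higher with Th17 and 5 with Th1 cells, led by Fn1 (5.25 and 4.76). Of 9 neutrophil genes 6 were higher with Th17 and 4 with Th1 cells, led by S100a8 (5.29 and 3.07). Of 9 endothelial genes 4 were higher and 2 lower with Th17 cells and 3 higher and 3 lower with Th1 cells. Of 7 ependymal genes Rarres2 was higher in both (3.54 and 3.42) and Ccdc153 lower with Th17 cells (-0.47).

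Hoxa10 had the largest SD of the 34 Hox genes in naive wild-type mice, naive Act1 ko mice and Act1 ko recipients, and the arrays below were singled out after their values were seen. It read 6.14, 5.08, 4.34 and 5.02 in the 4 Act1 ko Th17 recipients, beside 4.99 ± 1.09 (SD, n = 5) in naive Act1 ko mice and 4.02 ± 0.65 (SD, n = 5) in naive wild-type mice. The array with the highest Hoxa10 value among Act1 ko recipients, replicate 1, was also the highest of that group for Hoxb8 (7.34), Hoxb9 (5.51), Hoxd10 (6.28) and Hoxd11 (4.20). Among naive Act1 ko mice, replicate 3 had the highest value of Hoxa10 (6.28), Hoxb8 (6.85), Hoxb9 (5.64) and Hoxd10 (6.13). Hoxc8 was highest in the same naive array (8.36) but lowest in Act1 ko recipient replicate 1 (7.996), and Hoxb6 in naive Act1 ko mice was highest in replicate 2 (7.31).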
